A study of Mus musculus with 12 samples.

Results

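Livers of mice lacking the kinases p38γ and p38δ in myeloid cells were compared with livers of Cre controls, all after a steatohepatitis diet, over every gene in the table. The comparison takes 8 of the 12 libraries, chosen by their genotype label: 4 pools of Lyzs cre p38g/d mice (KO) and 4 pools of Lyzs cre mice (control). It covers 11791 genes. All animals were males aged 10 weeks with the strain label C57BL/6, kept for 3 weeks on a diet deficient in methionine and choline (MCD), and each library holds liver RNA of 2 different animals mixed equally. Both groups therefore share Lyzs-Cre and the diet, and differ in the labelled genotype. The labels speak of 12 males for each genotype, more than 4 pools of 2 hold, and do not say how the animals were assigned. The other 4 libraries are Lyzs cre mice treated with an antibody against Ly6G, which their titles call GR1. A label for the origin of the mitochondria divides the KO group. It reads C57 for every control and for the first pair of KO pools (1 and 2), but NZB for the other pair (3 and 4) and for the antibody pools. The growth protocol describes conplastic strains, which combine the nuclear genome of one strain with the mitochondrial DNA of another.

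The p38 kinases pass on stress and cytokine signals from the upstream kinases MKK3 and MKK6 to transcription factors and to regulators of mRNA decay. In myeloid cells p38γ and p38δ are known for their part in cytokine production and in the movement of neutrophils into tissue. Lyzs-Cre removes floxed DNA in macrophages, monocytes and neutrophils, and leaves hepatocytes, stellate cells and endothelial cells with their kinases. Most RNA of a whole liver comes from hepatocytes, so the comparison reads mainly cells in which the genes were not targeted. In such bulk samples, fewer cells of a type and less RNA per cell cannot be told apart.

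Levels are given in RPM, the deposited signal, which equals reads per M of a library total adjusted by the TMM method. Recovered depth was 14.4 to 19.9 M reads in control pools and 18.8 to 22.3 M in KO pools, and 3 reads correspond to 0.125 to 0.198 RPM in these libraries. Pools of a group differed by more than sampling noise, so none was a copy of another. A gene is called when its limma-trend test, fitted on log2(signal + 0.5) over all 12 libraries, has a Benjamini-Hochberg adjusted p under 0.05 over all genes. Every difference below is KO minus control on that log2 scale, and q stands for this adjusted p.

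Levels of the targeted genes come before the other results. Mapk12, the gene of p38γ (ENSMUSG00000022610, GRCm38 chr15:89130584-89140703, minus strand), read 2.08, 1.75, 2.14 and 2.71 RPM in the control pools and 1.63, 1.79, 2.70 and 3.06 RPM in the KO pools. The groups overlapped fully, and the means were 2.17 ± 0.397 and 2.30 ± 0.694 RPM (SD, n = 4), a difference of 0.05 (SE 0.184, q = 0.922). The sign turned without control pool 2 (-0.03), without KO pool 3 (-0.03) and without KO pool 4 (-0.08). Whole liver RNA at this level therefore gave no check of the deletion. Mapk13, which encodes p38δ, was not among the 11791 genes, so it has no value here. Lyz2, the myeloid lysozyme gene that carries the Cre insertion, read 95.0, 25.8, 127 and 133 RPM in control and 234, 246, 143 and 163 RPM in KO. All KO pools lay above all control pools, with control pool 2 far below its group, but the difference of 1.25 did not pass (SE 0.411, q = 0.135). The number of Cre alleles, which also sets how many intact Lyz2 copies an animal has, is not given in the labels.

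None of the 16 measured genes of the p38 cascade was called, with a median difference of 0.02 against -0.0013 over all genes. Map2k6, which encodes MKK6, had the largest difference among those named, with control levels of 8.13, 5.86, 8.02 and 4.96 RPM and KO levels of 3.42, 3.69, 1.83 and 2.49 RPM. Its groups did not overlap, and the test gave -1.12 (SE 0.302, q = 0.0808). Dusp1, a phosphatase that switches p38 off, differed by -0.38 (q = 0.183), and Mapkapk3, a kinase downstream of p38, by 0.33 (q = 0.341).

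Of the 11791 genes, 132 were called (1.12%), 69 higher (0.585%) and 63 lower (0.534%) in KO. Counts of calls in the gene lists below are to be read beside these shares. The lists were chosen with earlier results of these data known, so such counts are a description. Without any adjustment 2227 genes had p under 0.05 (18.9%), and the 4 and 4 pools did not overlap for 1457 genes (12.4%), all 132 called genes among them. The changes were modest in size. The median was 0.58 among genes called higher and -0.60 among those called lower, against a median absolute difference of 0.126 over all genes. On this log2 scale 4 called genes rose and 5 fell by at least 1. Because of the added 0.5, this is not the same as a 2-fold change in RPM for low genes. The calls were 121 protein-coding genes and 11 others. The share of higher genes among the calls was 52.3% and rose to 76.9% (123 higher, 37 lower) with the levels scaled to plain library totals, which shifted the median of all genes to 0.06. It was 31.6% (25 higher, 54 lower) with the mitochondria label as a covariate. With KO pools 1 and 2 only it was 22.4% (13 higher, 45 lower), and with KO pools 3 and 4 only 42.9% (21 higher, 28 lower). All controls carry the C57 label and all antibody pools the NZB label. The covariate fit therefore takes its difference from KO pools 1 and 2 against control, and departs from the fit of those pools only in the error estimate.

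**Figure D1:**
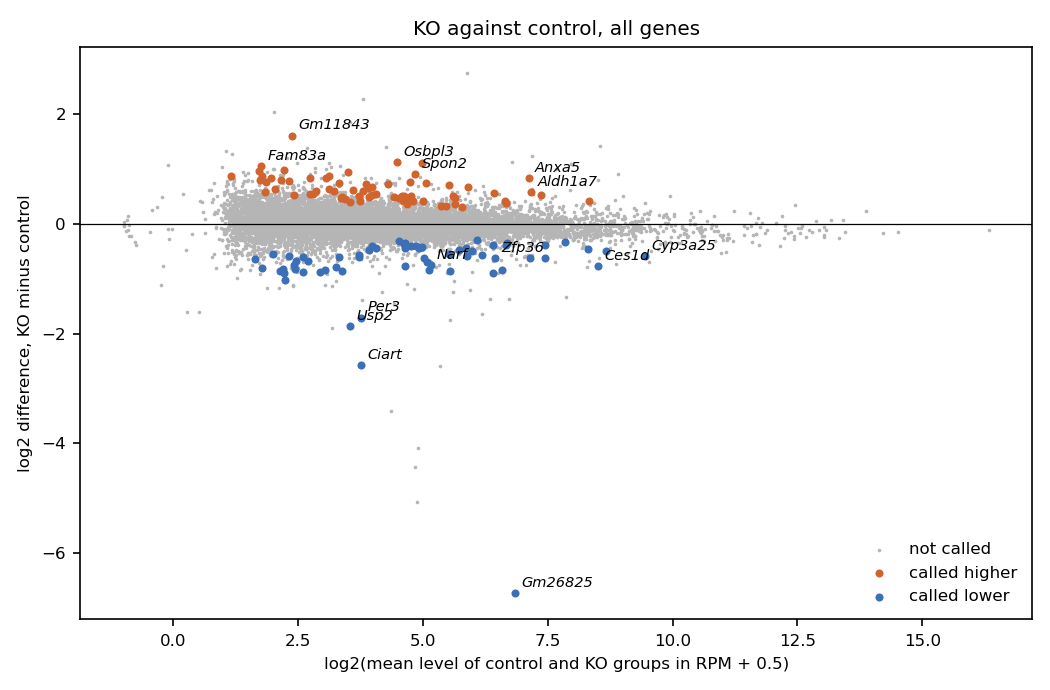
Difference between KO and control (log2, y axis) against mean level (log2 of RPM + 0.5, x axis) for 11791 genes, with the 69 genes called higher in orange and the 63 called lower in blue. Most called genes lie within 1 log2 unit of 0, and of the called genes Ciart, Usp2, Per3 and Gm26825 lie below -1.5.

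The number of calls depended on which pools were used. Without control pool 1, 2, 3 or 4 the test called 38, 3, 47 and 319 genes, and without KO pool 1, 2, 3 or 4 it called 38, 34, 23 and 87. Of the 132 calls, 3 held in all 8 of these fits, 14 held in 7, and 5 held in none. The pools of all 132 calls do not overlap between the groups, so no fit with fewer pools could turn a sign. That the signs stayed is therefore no support.

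**Figure D2:**
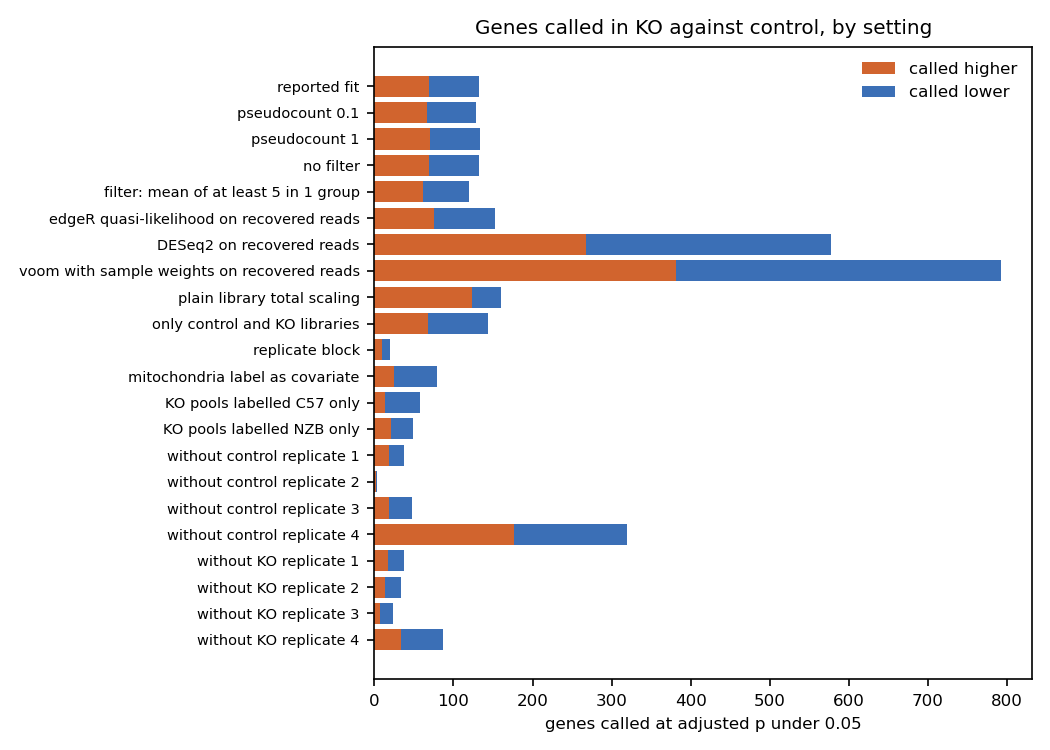
Number of genes called (x axis) in KO against control under the reported fit and each alternative (y axis), split into genes called higher (orange) and lower (blue). The reported fit calls 132 genes, and the bars run from 3 without control pool 2 to 792 with sample weights.

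The calls that held in all 8 fits were Spon2, Narf and Gm11843. Spon2 (ENSMUSG00000037379, GRCm38 chr5:33198184-33218455) encodes spondin 2, a secreted matrix protein that binds microbial surfaces and integrins. It read 16.6, 19.1, 21.6 and 20.7 RPM in control and 30.0, 34.7, 43.7 and 41.0 RPM in KO, so that the lowest KO pool stood well above the highest control pool. It rose by 0.91 (SE 0.116, q = 0.00801), with 0.83 to 1.01 over the 8 fits. Narf (ENSMUSG00000000056, GRCm38 chr11:121237253-121255856) encodes a nuclear protein that binds prelamin A. Its levels were 47.9, 48.7, 40.4 and 40.9 RPM in control and 28.1, 26.4, 24.9 and 24.9 RPM in KO, with the KO pools close together. It fell by 0.76 (SE 0.092, q = 0.00707), with -0.80 to -0.71 over the 8 fits. Gm11843 is a processed pseudogene and is described with the other copies.

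Genes of the circadian clock held the 3 largest decreases among called protein-coding genes. In this oscillator, CLOCK and BMAL1 switch on their own repressors, the Per and Cry genes and Ciart, through E-boxes, while the nuclear receptors REV-ERB and ROR act on a second loop and the factors TEF, DBP and HLF act on output genes through D-boxes. Many liver genes of metabolism follow this cycle over the day, and the labels do not give the hour of collection. The windows of 250 bases before the start of 4 of the called clock genes are shown as examples, chosen because they hold clock motifs, so the motif counts are a description and support nothing. The sequences are from RefSeq on GRCm38.p6, 5′ to 3′ on the gene's strand, with E-boxes (CACGTG), D-boxes (TTANGTAA) and the nuclear receptor motif AGGTCA in capitals, each searched on both strands.
Ciart (chr3:95882229-95882478, minus): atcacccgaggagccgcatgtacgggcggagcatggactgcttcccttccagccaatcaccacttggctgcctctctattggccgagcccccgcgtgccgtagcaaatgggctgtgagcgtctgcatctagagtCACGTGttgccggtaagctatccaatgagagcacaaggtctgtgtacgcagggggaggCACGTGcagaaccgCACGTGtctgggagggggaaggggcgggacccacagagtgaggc
Per3 (chr4:151044666-151044915, minus): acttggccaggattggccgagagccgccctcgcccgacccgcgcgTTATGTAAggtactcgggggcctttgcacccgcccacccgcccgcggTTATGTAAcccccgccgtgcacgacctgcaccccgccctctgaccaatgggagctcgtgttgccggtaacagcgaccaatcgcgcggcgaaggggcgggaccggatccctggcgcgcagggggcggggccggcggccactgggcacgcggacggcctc
Tef (chr15:81811164-81811413, plus): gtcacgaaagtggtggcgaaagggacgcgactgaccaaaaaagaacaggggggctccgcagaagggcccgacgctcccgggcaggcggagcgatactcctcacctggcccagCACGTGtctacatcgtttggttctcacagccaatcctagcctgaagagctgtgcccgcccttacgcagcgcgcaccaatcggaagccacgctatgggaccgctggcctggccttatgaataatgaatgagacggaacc
Nr1d2 (chr14:18239107-18239356, minus): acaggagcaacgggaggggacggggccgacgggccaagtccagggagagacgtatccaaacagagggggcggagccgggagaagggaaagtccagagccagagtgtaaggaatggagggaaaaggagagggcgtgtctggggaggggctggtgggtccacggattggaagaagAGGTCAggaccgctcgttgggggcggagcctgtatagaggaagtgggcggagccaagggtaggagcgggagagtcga
The Ciart window has 3 E-boxes, beginning 116, 58 and 44 bases before the start. Of 32851 windows of the same length, 6.02% held at least 1 E-box and 20 windows held 3 or more. The Per3 window has 2 D-boxes, at 205 and 158 bases, in a set where 2.06% of windows held any and 24 windows held 2 or more. Tef has an E-box at 138 bases in the window shown and another at 127 bases in its upstream window, and Nr1d2 has the receptor motif at 77 bases, a motif found in 14.0% of windows. The window of Usp2 held none of the 3 motifs. Windows were found for 24 of the 30 measured clock genes, and 6 of these genes had an E-box. Ciart and Tef were called, and Bhlhe41, Cry1, Per1 and Tspan4 were not. A match is a description of the letters in the window.

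Of 15 measured core clock genes 2 fell, Ciart and Per3, and none rose (13.3% called, beside 1.12% of all genes). Ciart (ENSMUSG00000038550), which encodes the repressor CHRONO of CLOCK and BMAL1, read 34.8, 22.4, 18.8 and 14.3 RPM in control and 3.27, 6.07, 3.08 and 1.58 RPM in KO. The highest KO pool was below the lowest control pool by more than the KO range itself, and Ciart fell by 2.57 (SE 0.364, q = 0.0115). A processed pseudogene, Gm9176, shares 24.1% of its sequence words of 25 bases. Per3 (ENSMUSG00000028957), a period protein, read 17.1, 24.5, 13.1 and 26.0 RPM in control and 8.07, 7.91, 4.54 and 3.35 RPM in KO, with no overlap. It fell by 1.71 (SE 0.287, q = 0.0193).

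Of 15 genes of the second loop and output 3 fell, Usp2, Tef and Nr1d2, and none rose (20% called, beside 1.12% of all genes). Usp2 (ENSMUSG00000032010), a ubiquitin protease that cycles in liver, read 12.3, 18.1, 14.3 and 26.0 RPM in control and 4.44, 7.54, 4.12 and 2.44 RPM in KO and fell by 1.86 (SE 0.358, q = 0.0323). Tef (ENSMUSG00000022389), the D-box factor, read 119, 124, 111 and 137 RPM in control and 83.4, 81.1, 58.5 and 54.3 RPM in KO and fell by 0.84 (SE 0.155, q = 0.0292). KO pools 3 and 4 were the lowest KO pools for both genes, as they were for Ciart and Per3. Nr1d2 (ENSMUSG00000021775), which encodes REV-ERBβ, read 76.0, 77.6, 67.4 and 75.6 RPM in control and 58.0, 51.6, 50.4 and 49.7 RPM in KO. Its decrease of 0.50 was the smallest of the 5 but had the smallest error (SE 0.0744, q = 0.0123). Cry2, a cryptochrome repressor, was at 42.9 ± 6.50 RPM in control and 26.6 ± 3.98 RPM in KO (SD, n = 4) without overlap, and its difference of -0.68 did not pass (q = 0.0519). Over the lists, 10 of 15 core genes and 12 of 15 second-loop genes were below 0, with medians of -0.27 and -0.40.

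The mitochondria label moved with the size of these differences. KO pools 1 and 2 (C57 label) gave -2.14 for Ciart, -1.23 for Per3, -1.47 for Usp2, -0.57 for Tef and -0.43 for Nr1d2, and KO pools 3 and 4 (NZB label) gave -3.01, -2.18, -2.24, -1.11 and -0.56. Its part in the result was not tested. Without control pool 1, 2, 3 or 4 the number of these 5 genes that passed was 3, 0, 4 and 5, and without KO pool 1, 2, 3 or 4 it was 4, 5, 2 and 3. Without control pool 2 the 5 differences were -2.55, -1.60, -1.83, -0.84 and -0.47, with q from 0.0536 to 0.0960.

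**Figure D3:**
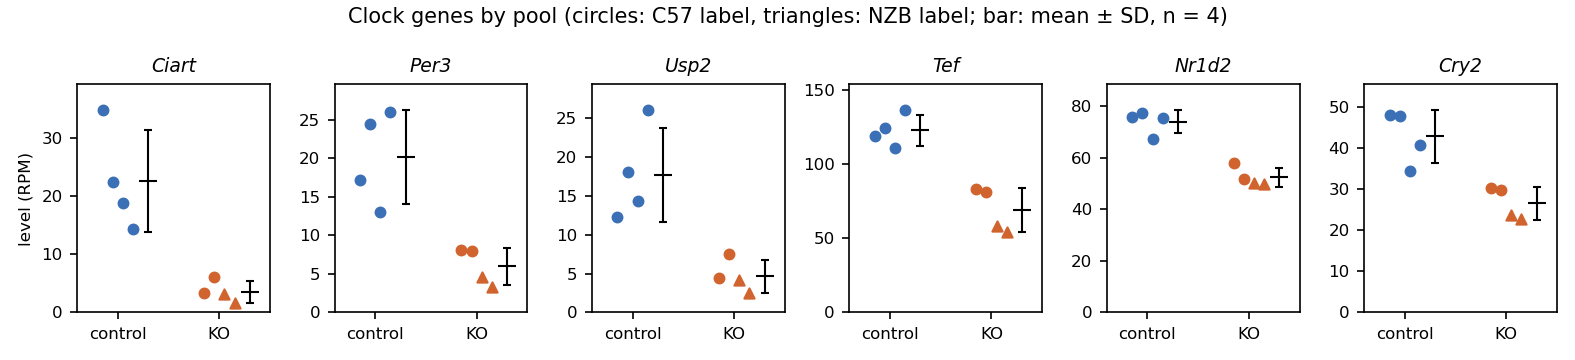
Levels in RPM (y axis) of the 5 called clock genes and Cry2 in the 4 control and 4 KO pools, with circles for pools with the C57 mitochondria label, triangles for pools with the NZB label, and mean ± SD (n = 4) beside them. No KO pool reaches the lowest control pool for any of the 6 genes, and the groups do not overlap for any of the 132 called genes.

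Matrix and contractile genes were mostly higher in KO, with few calls. Of 31 measured genes of the extracellular matrix and its remodelling, 27 were above 0 (49.6% of all genes were), and the median was 0.34. The calls were Spon2 and Col6a3, which rose (6.45% called, beside 1.12% of all genes). Col6a3, a chain of the microfibrillar collagen VI, read 9.20, 10.3, 10.4 and 15.1 RPM in control and 17.7, 20.1, 17.1 and 16.1 RPM in KO, where control pool 4 came within about 1 RPM of the lowest KO pool. It rose by 0.65 (SE 0.129, q = 0.0345). Col4a1, a basement membrane collagen, was at 59.8 ± 11.8 and 89.2 ± 8.42 RPM and did not pass (0.59, q = 0.0563). Among 19 measured stellate cell and myofibroblast genes 18 were above 0 with a median of 0.24, and Tagln, an actin-binding protein of contractile cells, rose by 0.60 (SE 0.108, q = 0.0276). Only 36.5% of the Tagln sequence words are unique, since 59.2% occur in the antisense gene Gm48529, so its value is uncertain. Pdgfrb, the growth factor receptor of stellate cells, differed by 0.51 (q = 0.0567). The summed level of the stellate list ran from 587 to 693 RPM in control and from 621 to 792 RPM in KO, with overlap, and no measured member was at 0.

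Gdf10, a secreted ligand of the TGF-β family, had narrow groups. It read 6.62, 6.01, 6.36 and 6.47 RPM in control and 10.0, 10.3, 9.99 and 10.4 RPM in KO, and rose by 0.64 (SE 0.0868, q = 0.0115). S1pr2, a receptor for sphingosine 1-phosphate, rose by 0.83 (SE 0.160, q = 0.0323) from 5.61 ± 1.51 to 10.2 ± 1.11 RPM. Anxa5, the annexin that binds phosphatidylserine, read 84.3, 89.8, 99.9 and 128 RPM in control and 160, 170, 197 and 184 RPM in KO. Control pool 4 was the highest control and still below every KO pool, and Anxa5 rose by 0.84 (SE 0.147, q = 0.0253). Its relative Anxa2 and the Anxa2 partner S100a10, both named after their values were seen, rose by 0.67 (q = 0.0415) and 0.57 (q = 0.0184). Of Spon2, Col6a3, Tagln, Gdf10, S1pr2, Anxa5, Anxa2 and S100a10, the number that passed without control pool 1, 2, 3 or 4 was 4, 1, 3 and 8, and without KO pool 1, 2, 3 or 4 it was 5, 3, 3 and 7. Their differences stayed between 0.50 and 1.01 in all of these fits.

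In the interleukin-1 axis the receptor fell and the receptor antagonist rose, and 16 of the 18 measured genes were not called. The share called was 11.1%, beside 1.12% of all genes. Il1r1 (ENSMUSG00000026072) encodes the signalling receptor for interleukin-1, and Il1rn (ENSMUSG00000026981) the secreted antagonist that occupies it without a signal. Il1r1 read 34.3, 48.0, 47.9 and 47.1 RPM in control and 22.9, 25.4, 25.3 and 23.6 RPM in KO. Control pool 1 lay apart from the other controls and nearer to the KO pools, which stayed within 3 RPM of each other. Il1r1 fell by 0.84 (SE 0.120, q = 0.0115). Il1rn read 10.0, 15.5, 13.4 and 18.9 RPM in control and 29.4, 22.6, 23.1 and 20.3 RPM in KO, without overlap, though control pool 4 and KO pool 4 were close. It rose by 0.73 (SE 0.160, q = 0.0459). Traf6, the ubiquitin ligase that carries the signal on, differed by -0.39 (q = 0.104). The Il1r1 call held in each fit that left out a pool except that without control pool 2 (-0.80, q = 0.0536). The Il1rn call held only without control pool 4, and its difference lay between 0.57 and 0.86 in the 8 fits.

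Single genes of signalling and mRNA decay were called. Zfp36 (ENSMUSG00000044786) encodes tristetraprolin, which binds AU-rich elements and speeds the decay of cytokine mRNAs, and is a known substrate of the p38 pathway. It read 124, 107, 89.0 and 103 RPM in control and 70.6, 63.2, 73.6 and 66.2 RPM in KO, with a gap between the groups, and fell by 0.62 (SE 0.0946, q = 0.0139). It was the only call among 11 measured genes of mRNA destabilisation, and its relative Zfp36l2 differed by -0.18 (q = 0.293). Spry4, a feedback inhibitor of receptor tyrosine kinase signalling, fell by 0.64 (SE 0.137, q = 0.0415), at 3.28 ± 0.337 RPM in control and 1.93 ± 0.281 RPM in KO. It was the only call among 15 measured genes of ERK and JNK feedback. None of 17 immediate early genes was called. Of these, 9 were above 0, the median was 0.01, and at an unadjusted p under 0.05 there were 2 higher and 4 lower. Junb (-0.55, q = 0.128), Ier2 (-0.34, q = 0.0985) and Klf4 (-0.52, q = 0.116), all below 0, had the lowest p.

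Id1, an inhibitor of helix-loop-helix factors and a target of BMP signalling, read 42.5, 45.4, 35.5 and 33.0 RPM in control and 21.0, 23.7, 29.7 and 26.8 RPM in KO. It fell by 0.62 (SE 0.119, q = 0.0330), with KO pools 1 and 2 lower than KO pools 3 and 4. Bmp6, a ligand that endothelial cells make and that drives hepcidin in hepatocytes, was also lowest in KO pools 1 and 2, at 1.79, 2.69, 3.58 and 6.51 RPM in KO, against 5.46 to 8.02 RPM in control. Its groups overlapped and the difference of -0.87 did not pass (q = 0.113). Both belong to a list of 21 measured iron handling genes with a median of -0.04, where Id1 was the only call (4.76%, beside 1.12% of all genes). The hepcidin gene Hamp2 of that list was not lowest in KO pools 1 and 2, at 93.7, 108, 87.5 and 103 RPM in KO. Hdc, the enzyme that makes histamine, read 57.2, 81.0, 49.7 and 50.7 RPM in control and 29.0, 26.7, 36.1 and 38.2 RPM in KO and fell by 0.85 (SE 0.144, q = 0.0193). Sox12, an SRY-box transcription factor, went from 10.1 ± 0.963 to 5.37 ± 0.597 RPM (SD, n = 4) and fell by 0.85 (SE 0.134, q = 0.0164). Of Zfp36, Spry4, Id1, Hdc and Sox12, 3, 0, 3 and 4 passed without control pool 1, 2, 3 or 4, and 2, 2, 4 and 4 without KO pool 1, 2, 3 or 4. Their differences stayed between -0.93 and -0.53.

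Among 30 measured retinoid and short-chain dehydrogenase genes 4 rose and none fell (13.3% called, beside 1.12% of all genes). These enzymes pass retinol, retinal, steroids and other alcohols between their alcohol, aldehyde and acid forms. Sdr9c7 (ENSMUSG00000040127) read 7.25, 5.81, 8.20 and 7.93 RPM in control and 12.9, 17.1, 13.5 and 14.6 RPM in KO and rose by 0.95 (SE 0.138, q = 0.0115). Dhrs9, a retinol dehydrogenase, read 2.40, 2.91, 2.79 and 2.38 RPM in control and 4.85, 5.59, 6.53 and 5.79 RPM in KO and rose by 0.99 (SE 0.177, q = 0.0264). Each KO pool of both genes lay well above the highest control pool. Aldh1a7, an aldehyde dehydrogenase related to the retinal oxidising enzymes, rose by 0.58 (SE 0.081, q = 0.0115) from 115 ± 7.67 to 173 ± 16.6 RPM, and 82.3% of its sequence words are unique. Rdh11, a retinal reductase, rose by 0.54 (SE 0.0890, q = 0.0184) from 13.1 ± 0.797 to 19.3 ± 0.882 RPM. The other members were spread on both sides of 0, and the median of the list was 0.11. Without control pool 1, 2, 3 or 4 the number of these 4 that passed was 3, 0, 3 and 4, and without KO pool 1, 2, 3 or 4 it was 4, 2, 2 and 4, with differences between 0.50 and 1.05.

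**Figure D4:**
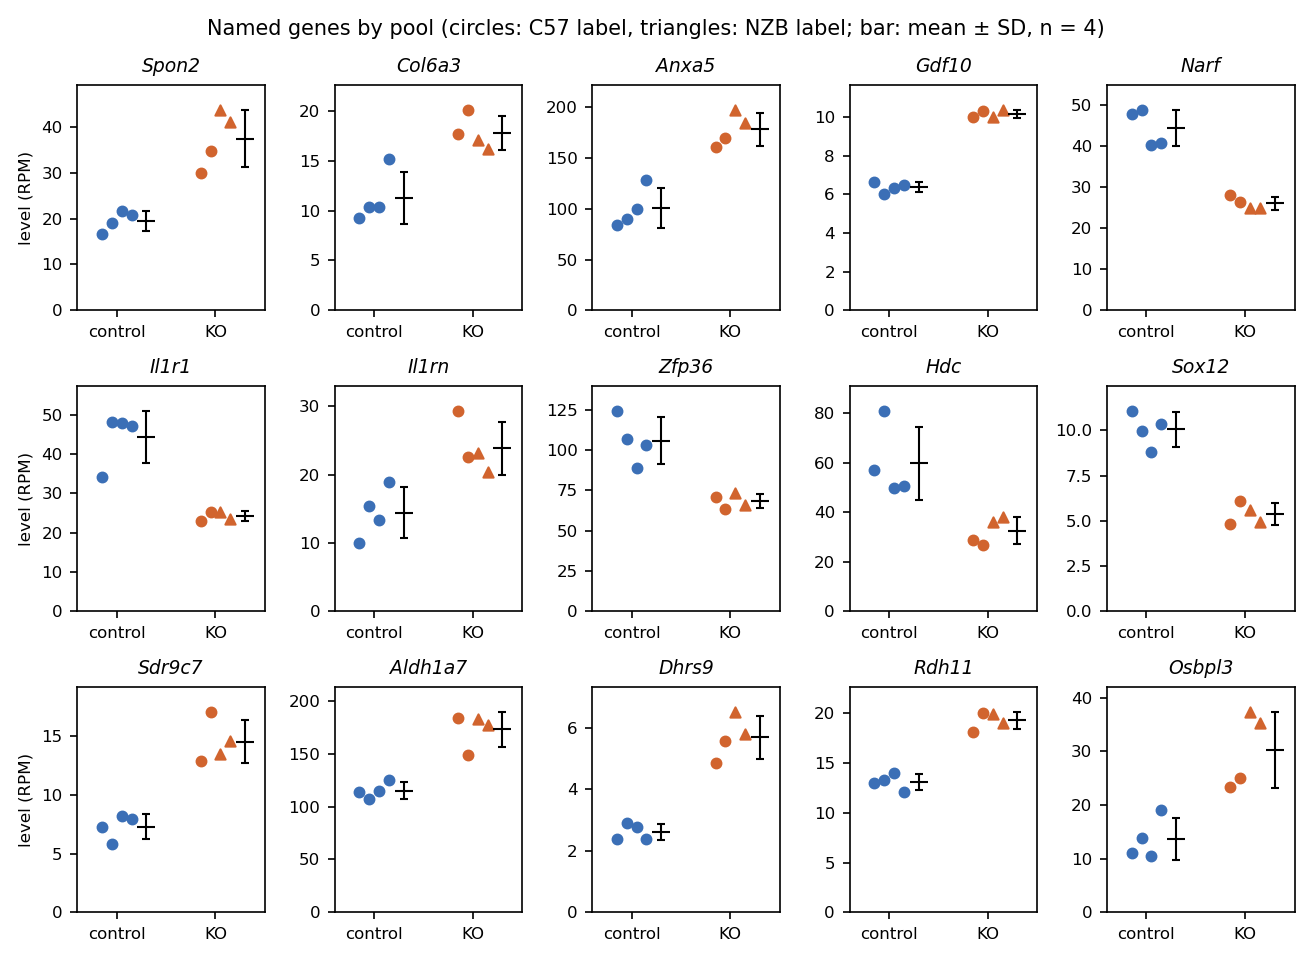
Levels in RPM (y axis) of 15 called genes of the matrix, interleukin-1, regulator and dehydrogenase groups and Osbpl3 in the 4 control and 4 KO pools, with circles for the C57 mitochondria label, triangles for the NZB label, and mean ± SD (n = 4). The groups do not overlap for any of the 15 genes, which holds for all 132 called genes. Control pool 4 is nearest to the KO pools for Col6a3, Anxa5, Il1rn and Osbpl3.

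Sterol genes were mostly above 0 with a small number of calls. Of 27 measured genes of cholesterol synthesis and its regulator SREBP2, 22 were above 0, 11 of them at an unadjusted p under 0.05 (9.42% of all genes were higher at that p), and the median was 0.28. Nsdhl, a demethylation enzyme of the late pathway, read 7.75, 6.61, 6.71 and 6.94 RPM in control and 10.2, 12.9, 14.2 and 11.1 RPM in KO and rose by 0.74 (SE 0.143, q = 0.0323). Sqle, the squalene oxidising enzyme, was at 4.16 ± 0.756 and 8.11 ± 1.81 RPM without overlap and did not pass (0.88, q = 0.0679). Osbpl3 (ENSMUSG00000029822), a lipid transfer protein of the oxysterol-binding family, read 11.2, 13.9, 10.5 and 19.2 RPM in control and 23.3, 25.1, 37.4 and 35.3 RPM in KO. The KO pools with the NZB label were the highest (1.42 against 0.84 in the pools with the C57 label), and Osbpl3 rose by 1.13 (SE 0.241, q = 0.0415). It was the only call among 19 genes of oxysterol and sterol transport, 7 of which were above 0 (12 under plain scaling).

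A lipase and a coactivator of fatty acid metabolism fell. Ces1d, a carboxylesterase that hydrolyses triglyceride, read 490, 499, 505 and 344 RPM in control and 271, 295, 244 and 259 RPM in KO and fell by 0.77 (SE 0.162, q = 0.0415). Control pool 4 stood apart from the other controls for Ces1d, toward the KO pools. Ppargc1b, a coactivator of mitochondrial and lipid genes, fell by 0.88 (SE 0.183, q = 0.0415) from 9.53 ± 2.54 to 4.85 ± 0.219 RPM. None of 23 measured genes of fatty acid synthesis was called, and Fgf21, a hormone that the fasted or stressed liver secretes, differed by 0.81 (q = 0.0728), with 0.37 in the C57 pools and 1.25 in the NZB pools. Of Osbpl3, Nsdhl, Ces1d and Ppargc1b, 0, 0, 0 and 4 passed without control pool 1, 2, 3 or 4, and 1, 0, 0 and 1 without KO pool 1, 2, 3 or 4, with differences between -0.98 and 1.30.

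Transporters and drug-metabolising enzymes had few calls, in both directions. Slc20a1, a sodium-dependent phosphate carrier, read 153, 101, 104 and 86.3 RPM in control and 57.1, 59.9, 60.7 and 53.9 RPM in KO and fell by 0.90 (SE 0.139, q = 0.0140). Slc10a1, the bile acid uptake carrier NTCP, read 481, 481, 507 and 436 RPM in control and 358, 380, 306 and 316 RPM in KO and fell by 0.49 (SE 0.0932, q = 0.0323). The KO pools of both carriers all lay below the lowest control pool. Slc37a4, the glucose 6-phosphate carrier of the endoplasmic reticulum, fell by 0.62 (q = 0.0345), and Slc39a9, a zinc carrier, rose by 0.31 (q = 0.0415). These were the 4 calls among 208 measured solute carriers (1.92%, beside 1.12% of all genes), whose median was 0.02. Among 60 cytochrome P450 genes 2 fell and 1 rose (5% called), and 20 were above 0 (27 under plain scaling).

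Cyp2j9, an enzyme of fatty acid epoxidation, fell by 0.86 (SE 0.162, q = 0.0323) from 12.9 ± 1.73 to 6.91 ± 1.17 RPM. Cyp3a25, a drug-metabolising enzyme, fell by 0.59 (SE 0.129, q = 0.0459) from 840 ± 110 to 559 ± 67.5 RPM. Its value is uncertain because 46.0% of its sequence words are unique among its close relatives. Cyp4f18, an enzyme that myeloid cells use to break down leukotriene B4, rose by 0.77 (SE 0.169, q = 0.0471) from 2.20 ± 0.227 to 4.09 ± 0.274 RPM. Gstt2, a glutathione transferase, fell by 0.39 (q = 0.0380) and was the only call among 42 genes of sulfation, glucuronidation and glutathione transfer (2.38%). Of these 4 carriers and 4 enzymes, 1, 0, 1 and 8 passed without control pool 1, 2, 3 or 4, and 2, 3, 2 and 1 without KO pool 1, 2, 3 or 4, with differences between -1.01 and 0.81.

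Of 23 measured genes of hepatocyte identity 16 were below 0 (12 under plain scaling) with a median of -0.08, 2 of them lower at an unadjusted p under 0.05, and 1 was called. Foxa3, a forkhead factor that opens liver chromatin, rose by 0.76 (SE 0.162, q = 0.0415) and read 16.2, 14.0, 23.9 and 24.2 RPM in control and 26.4, 36.2, 37.2 and 31.5 RPM in KO. Its call held only without control pool 3 or control pool 4, and its difference lay between 0.62 and 0.87 in the 8 fits. The summed level of the hepatocyte list ran from 139030 to 161130 RPM in control and from 130870 to 160260 RPM in KO.

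Monocyte and neutrophil markers were mostly above 0 and held 1 call. Of 12 measured genes of recruited monocytes 11 were above 0 with a median of 0.50, and Lst1, a leukocyte transmembrane adaptor, rose by 0.88 (SE 0.162, q = 0.0299). Lst1 read 1.13, 1.10, 0.950 and 1.06 RPM in control and 3.17, 2.00, 2.21 and 2.20 RPM in KO, a low level in both groups. Ccr2, the chemokine receptor that brings monocytes into tissue, was at 5.24 ± 1.97 and 10.5 ± 1.04 RPM without overlap and did not pass (1.00, q = 0.0903). Chil3, a chitinase-like protein of activated myeloid cells, read 1.13 to 3.46 RPM in control and 3.30 to 9.50 RPM in KO and did not pass (q = 0.105). The summed level of the monocyte list was 371 to 485 RPM in control and 448 to 651 RPM in KO. KO pools 1 and 2 were at 631 and 651 RPM, above every control pool. KO pools 3 and 4 were at 448 and 462 RPM, within the control range. Lyz2, the gene with the Cre insertion, belongs to this list, and its levels given above are a large part of the sums in KO. In KO pools 3 and 4 Lyz2 was above every control pool, while the list sums of these pools were not. The sum without Lyz2 was not computed, so these sums are not a measure of monocyte RNA apart from that gene.

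None of the 10 measured neutrophil genes was called, though 9 were above 0 with a median of 0.36. Their summed level was 107 to 274 RPM in control and 241 to 594 RPM in KO. Much of it was Lcn2, a siderophore-binding protein that hepatocytes also make, at 446 and 538 RPM in KO pools 1 and 2, 193 and 197 RPM in KO pools 3 and 4, and 80.2 to 228 RPM in control. Csf3r, the receptor of the granulocyte growth factor, read 4.66 to 7.27 RPM in control and 5.92 to 8.32 RPM in KO (0.34, q = 0.337). Clec4d, a lectin of neutrophils and inflammatory macrophages, differed by 0.51 (q = 0.380). No call was made among 16 genes of lipid-associated macrophages (14 above 0, median 0.37) or 14 of Kupffer cells (8 above 0, median 0.08). The part of these cells in the differences described here was not tested.

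Endothelial genes were mostly lower in KO, least so in KO pool 4. Of 20 measured liver endothelial genes 19 were below 0 with a median of -0.38, and Podxl, a sialomucin of the vessel surface, fell by 0.87 (SE 0.178, q = 0.0380). Kdr, the main receptor for VEGF-A, read 52.2, 48.9, 49.7 and 44.9 RPM in control and 21.6, 23.7, 31.0 and 44.7 RPM in KO. KO pool 4 nearly reached the lowest control pool, and the difference of -0.74 did not pass (q = 0.0595). Dnase1l3, a secreted nuclease of sinusoidal cells, differed by -0.75 (q = 0.0608) with KO pool 4 within the control range. The summed level of the list was 434 to 517 RPM in control and 288, 331, 384 and 520 RPM in KO pools 1 to 4. The list median was -0.67 in KO pools 1 and 2 and -0.11 in KO pools 3 and 4. The latter pair was uneven, with the summed level of KO pool 3 below every control pool and that of KO pool 4 above.

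Further calls touched immune regulators. Stap1, an adaptor of B cells and macrophages, rose by 0.84 (SE 0.148, q = 0.0253) from 2.30 ± 0.419 to 4.47 ± 0.211 RPM, and Ly6e, an interferon-induced surface protein, rose by 0.42 (q = 0.0323) from 275 ± 31.2 to 368 ± 12.2 RPM. Phf11c, the 1 call among 35 interferon-response genes, fell by 0.90 (SE 0.180, q = 0.0365) from 5.57 ± 1.03 to 2.73 ± 0.306 RPM. It shares sequence with its neighbours of the Phf11 family. No call was made among 22 chemokine and NF-κB response genes, of which 19 were above 0 with a median of 0.23. Nfkb2, the precursor of a subunit of the non-canonical NF-κB complex, was at 9.03 ± 1.08 and 13.8 ± 2.38 RPM without overlap and just missed the threshold (0.58, q = 0.0501), and its partner Relb differed by 0.51 (q = 0.114). Of Lst1, Podxl, Stap1, Ly6e and Phf11c, 1, 0, 1 and 5 passed without control pool 1, 2, 3 or 4, and 0, 0, 0 and 4 without KO pool 1, 2, 3 or 4, with differences between -1.02 and 0.94.

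Some lists leaned to 1 side without calls. All 28 nuclear oxidative phosphorylation genes were below 0 with a median of -0.07, but 13 of them were above 0 under plain scaling. Of 79 ribosomal protein genes 69 were below 0 with a median of -0.17, 35 of them at an unadjusted p under 0.05 (9.46% of all genes were lower at that p), and under plain scaling 14 were above 0 and the median was -0.10. Of 13 mitochondrially encoded genes 12 were below 0, with mt-Nd5, a subunit of respiratory complex I, at -0.39 (q = 0.145). The medians were -0.08 in KO pools 1 and 2 and -0.21 in KO pools 3 and 4. The acute phase list, 23 genes without a call, had a median of 0.33 in KO pools 1 and 2 and -0.27 in KO pools 3 and 4. Its summed level was 23134 to 31754 RPM in control and 22947 to 34642 RPM in KO.

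**Figure D5:**
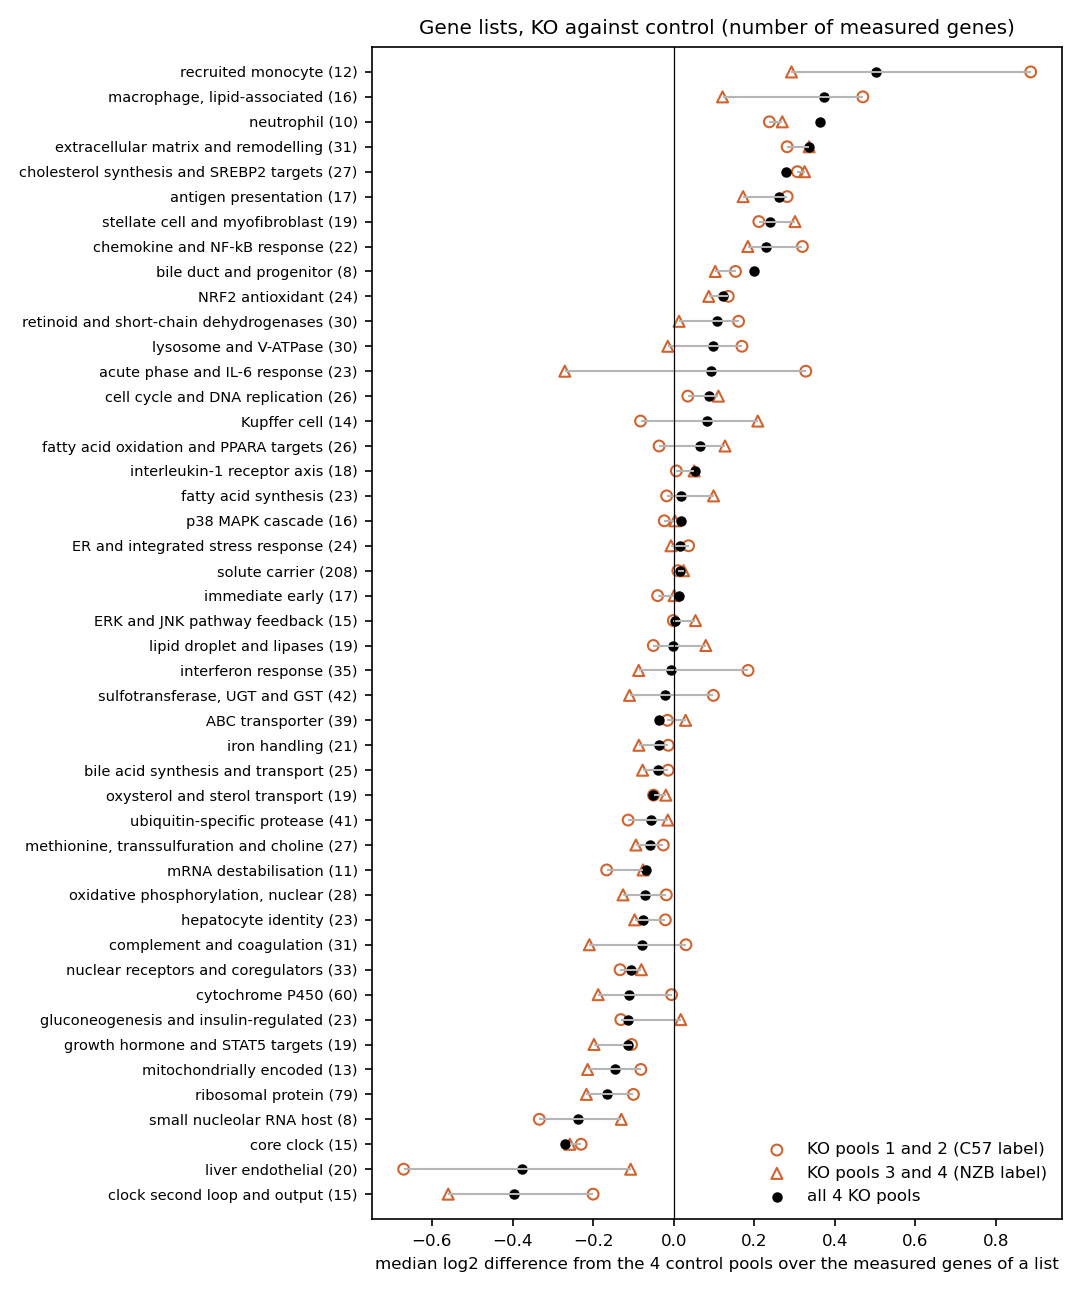
Median log2 difference from the 4 control pools over the measured genes of each list (x axis; number of genes in brackets), for all 4 KO pools (black), KO pools 1 and 2 with the C57 label (circles) and KO pools 3 and 4 with the NZB label (triangles). The monocyte list is highest (0.50) and the clock output list lowest (-0.40), and the acute phase list lies at 0.33 and -0.27 in the pools with either label.

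Among the other large changes, Fam83a, a scaffold for casein kinase 1, rose by 1.05 (SE 0.203, q = 0.0323) from 1.74 ± 0.527 to 4.07 ± 0.557 RPM. The uncharacterised 2010003K11Rik read 14.2, 15.6, 18.6 and 32.9 RPM in control and 38.5, 37.1, 49.8 and 44.2 RPM in KO and rose by 1.11 (SE 0.201, q = 0.0271). Control pool 4 was again the control nearest to the KO pools. Smim1, which carries the Vel blood group antigen of red cells, rose by 0.97 (q = 0.0323), the noncoding host RNA Snhg18 by 0.88 (q = 0.0323), Fam89a by 0.87 (q = 0.0164) and Hdhd3 by 0.84 (q = 0.0388). Zc3h6, a zinc finger protein, fell by 0.85 (q = 0.0323) from 5.21 ± 1.02 to 2.63 ± 0.269 RPM. Of these 7, 1, 0, 2 and 7 passed without control pool 1, 2, 3 or 4, and 1, 1, 0 and 4 without KO pool 1, 2, 3 or 4, with differences between -0.93 and 1.37.

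Among the most abundant called genes, beside Cyp3a25, Ces1d and Slc10a1, Bnip3, a mitophagy receptor, fell by 0.45 (q = 0.0415) from 366 ± 37.9 to 266 ± 17.5 RPM, and Rab43, a small GTPase of vesicle traffic, fell by 0.34 (q = 0.0388). Their values are uncertain, with 39.8% and 25.2% of sequence words unique. Gpcpd1, a phosphodiesterase that releases choline from glycerophosphocholine, fell by 0.62 (SE 0.123, q = 0.0345) and read 216, 229, 181 and 210 RPM in control and 149, 115, 117 and 165 RPM in KO. Prkd3, a protein kinase D, rose by 0.54 (q = 0.0264) from 135 ± 15.2 to 195 ± 11.7 RPM. None of 27 genes of methionine, transsulfuration and choline metabolism was called, and in that list Ahcy, which splits S-adenosylhomocysteine, differed by -0.53 (q = 0.0757). Of Bnip3, Rab43, Gpcpd1, Prkd3 and Ly6e, 0, 0, 2 and 5 passed without control pool 1, 2, 3 or 4, and 0, 1, 0 and 3 without KO pool 1, 2, 3 or 4, with differences between -0.72 and 0.59.

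Genes near the targeted loci were counted because engineered alleles are inherited with the DNA beside them. Within 10 Mb of Mapk12, 3 of 158 tested genes were called (1.90%), and within 10 Mb of Mapk13, 4 of 301 (1.33%), beside 1.12% of all genes. The nearest was Shank3, a scaffold protein, 0.359 Mb from Mapk12, which fell by 0.81 (SE 0.156, q = 0.0323) from 5.33 ± 0.449 to 2.88 ± 0.824 RPM. Tef and Tuba1c were the other 2 near Mapk12, and Ggnbp1 (-0.57), Ccnf (0.61), Tnxb (0.67) and Lst1 those near Mapk13. Shank3, Tuba1c, Ggnbp1, Ccnf and Tnxb were named after their values were seen. Of the 7, 0, 0, 1 and 6 passed without control pool 1, 2, 3 or 4, and 1, 1, 0 and 3 without KO pool 1, 2, 3 or 4, with differences between -0.95 and 0.94. Sequence differences at these loci were not tested.

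Transcripts with near-identical copies are uncertain, because reads may be split between copies. Of 130 called genes with a value, 33 had under 90% of their sequence words of 25 bases unique. Over all 11665 genes with a value, 73.1% had at least 90% unique, so the calls were near the share of all genes. Gm26825 (ENSMUSG00000097554, GRCm38 chr5:5781530-5783636) read 8.32, 200, 353 and 347 RPM in control and 1.48, 0, 3.00 and 0 RPM in KO. Control pool 1 was far nearer to KO than to the other controls, and in the anti-Ly6G pools the transcript was at a mean of 558 RPM. The test gave -6.73 (SE 0.975, q = 0.0115), and without control pool 2 it gave -6.48 (q = 0.0536). Only 4.75% of its sequence words are unique and 89.0% occur in Hspa8, a constitutive heat shock protein, which was at 827 ± 192.5 RPM in control and 1160.5 ± 71.5 RPM in KO (0.52, q = 0.104). Gm11843 (ENSMUSG00000082676, GRCm38 chr4:12131551-12131975) read 2.21, 1.60, 2.49 and 2.05 RPM in control and 8.89, 7.60, 6.57 and 6.51 RPM in KO and rose by 1.61 (SE 0.161, q = 0.00139). It shares 53.1% of its sequence words with Ube2v2, a ubiquitin conjugation factor that was also called, at 19.3 ± 2.22 and 27.8 ± 2.83 RPM (0.51, q = 0.0415).

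The anti-Ly6G pools were compared with the same 4 control pools, so the values of the comparisons are set side by side and share those pools. In anti-Ly6G against control 3580 genes were called (30.4%). Ciart differed by -1.73 there (q = 0.00353), Usp2 by -0.39 (q = 0.425) and Cry2 by -0.70 (q = 0.00418), beside -2.57, -1.86 and -0.68 in KO. Per3 was at 0.50 (q = 0.205), Tef at 0.09 (q = 0.696) and Nr1d2 at 0.25 (q = 0.0229), beside -1.71, -0.84 and -0.50 in KO. Spon2 gave 0.24 (q = 0.131) beside 0.91, Narf -0.33 (q = 0.0163) beside -0.76, and Col6a3 -0.81 (q = 0.000640) beside 0.65. Il1r1 gave -0.46 (q = 0.0116) beside -0.84, Zfp36 -1.52 (q = 2.13e-07) beside -0.62, Slc20a1 -0.77 (q = 0.00153) beside -0.90, and Aldh1a7 0.93 (q = 7.39e-06) beside 0.58. The difference between the KO and antibody groups was not tested here.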

How the data were processed

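Per the labels' protocols, liver RNA of 12 pools was read on a Genome Analyzer IIx. The deposited table holds a normalized signal for each gene and library. The submitters' processing notes name cutadapt 1.2.1, RSEM 1.2.3, Bowtie2 2.0.6, edgeR (version not given in the sources used here) and the build GRCm38, without roles. All values in all 12 columns were whole multiples, within 0.01, of the worth of 1 read (100%), so reads were recovered by division. A stricter test on low values passed in 4 columns, the others holding too few. The signal equals reads over a TMM-adjusted library total.

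Differences come from limma-trend (limma 3.58.1, R 4.3.3) on log2(signal + 0.5) of the deposited signal, in 1 fit of 12 libraries without covariates and Benjamini-Hochberg adjustment over 11791 genes. A minimum mean of 1 in at least 1 group removed 0 genes. The added 0.5 makes the log2 scale understate changes of low genes, and p-values measure the spread between pools of 2 animals. The script was tested on simulated data. Recovered reads also went into edgeR 4.0.16 (quasi-likelihood), DESeq2 1.42.0 and voom with sample weights. Other pseudocounts, filters, scalings, sample sets and each left-out pool were tried.

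The gene lists, members and naming rule were chosen with earlier results of these data known. Named were Mapk12, Mapk13 and Lyz2, the 15 largest called changes each way with no overlap, the 10 lowest q, in each list the called genes and the 3 lowest p, the 10 most abundant called genes, and calls held in every fit without a pool. The text gives a subset of these. Names and positions come from GENCODE vM21 (11665 of 11791 IDs with sequence), and uniqueness is the percent of annotated 25-mers found in no other annotated gene. How shared reads and strand were handled is not given in the sources used here. Deviations of pools with the same number correlated weakly (r = 0.13, 0.08, 0.12 and 0.01), beside -0.19 to 0.14 for pools with different numbers. The labels do not tie pools by number, so numbers were not used as pairs. These values cannot exclude a pairing.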

Additional observations from a re-analysis of the deposited data

Results flagged for a closer look

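Among the genes named in the text, 194 groups of 4 pools were checked for a pool far from the other 3, and 7 were found. Chance gives about 5% of groups. Ces1d was at 344 RPM in control pool 4 against 490.2 to 505 RPM in the other controls. Traf6 was at 21.6 RPM in the same pool against 31.8 to 32.9 RPM, and Tuba1c at 50.1 RPM against 35.0 to 36.9 RPM. Control pool 1 held Il1r1 at 34.3 RPM against 47.1 to 48.0 RPM, Ggnbp1 at 19.2 RPM against 13.9 to 14.1 RPM, and Gm26825 at 8.32 RPM against 200.3 to 353 RPM. Relb was at 5.07 RPM in KO pool 4 against 6.90 to 7.28 RPM in the other KO pools.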

How the results depend on the processing

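The count of 132 called genes moved by over 1.5 times under DESeq2 (577), voom with sample weights (792), the mitochondria label as covariate (79), KO pools with the C57 label only (58) and KO pools with the NZB label only (49). Leaving out 1 pool gave 3 to 319. The replicate block gave 20 calls (10 higher, 10 lower). The labels tie none of the 4 same-numbered pairs, and whether the shared numbers pair these pools is not known. edgeR called 153 genes, 131 of the 132 among them. Pseudocounts of 0.1 and 1, no filter, a minimum mean of 5, plain scaling and a fit of only these 8 libraries stayed within 1.5 times. The genes were not all the same. Plain scaling called 160 genes, 101 of the 132 among them, and the fit of 8 libraries called 144, 97 of the 132 among them. Of 61 called genes named in the text, none reversed in any of 21 alternatives. In every limma-trend fit of the deposited signal this was fixed, because the pools of called genes do not overlap. This covers the pseudocounts, filters, sample sets, replicate block and mitochondria covariate. Of 1275 values 787 kept the call and 488 lost it, 58 of these without control pool 2. Among 36 uncalled named genes, Mapk12 reversed, at -0.26 with the mitochondria covariate and in the C57 pools alone, which give the same difference. Its value without 1 pool ran from -0.0814 to 0.1648. A group with 1 label in only 2 pools borrows its spread from the others. Low levels limit precision: 44 called genes had a mean under 10 RPM. The cause of these dependences was not tested.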

Other observations

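Sex-dependent and nutrient-dependent liver genes were mostly below the threshold. None of 19 growth hormone and STAT5 target genes was called, with 6 above 0 (9 under plain scaling). Igf1, the liver's main circulating growth factor, was at 419 ± 25.4 RPM in control and 343 ± 10.7 RPM in KO without overlap (-0.29, q = 0.0522), and Cux2, a transcription factor that is typical of female liver, was at 25.2 ± 8.95 and 10.3 ± 2.87 RPM (-1.24, q = 0.113). Thrsp, a lipogenic regulator, read 6.32 to 30.3 RPM in KO, the lower values in the pools with the NZB label, against 18.3 to 48.3 RPM in control (-1.19, q = 0.228). Lpin1, a phosphatidate phosphatase and coregulator, was at 70.2 ± 41.0 RPM in control and 26.5 ± 5.09 RPM in KO with overlap (-1.23, q = 0.140). Hamp2, a hepcidin gene with 60.5% of its sequence words unique, was at 168 ± 36.9 and 97.9 ± 9.07 RPM without overlap (-0.76, q = 0.107).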
